A study of Homo sapiens with 6 samples.

Results

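The genes that encode the proteins of the cytosolic ribosome were followed in WPMY-1 cells, an immortalized human line of prostate stromal cells with myofibroblast features, given 24 mM lactate for 48 h (lactate, n = 3) or left without it (control, n = 3). The members were all rows of the count table with a ribosomal protein symbol (RPL or RPS followed by a digit, and RPSA, RPLP0, RPLP1 and RPLP2), without the RPS6K kinases, RPS4Y1 and symbols that end in P and digits, as pseudogenes do. This gave 83 of 15924 rows. They held 45 genes of the large subunit, 30 of the small subunit, 7 paralogs (RPL3L, RPL7L1, RPL22L1, RPL26L1, RPL36AL, RPL39L and RPS27L) and 1 row that encodes no ribosomal protein, the antisense transcript RPL34-AS1. RPL21 and RPL10L were not analysed here.

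Both groups were cultures of 1 cell line, which carries the SV40 large T antigen, a viral protein that immortalizes cells. According to the labels, the cells grew in DMEM with serum under CO2, and the samples are biological replicates. The study's methods describe lactic acid buffered with NaOH to below neutral pH, in medium lacking bicarbonate and without CO2, and the pH of the control medium is not given, so lactate and acidity cannot be told apart here. The study asks how lactate from tumor cells alters stromal cells, and the comparison below asks how the mRNAs of the translation machinery stood in that setting.

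A cytosolic ribosome joins a small subunit, which reads the mRNA, to a large subunit, which forms the peptide bond. Each is built in the nucleolus from ribosomal RNA and 1 copy of most of its proteins, so cells make these proteins in balanced amounts. Most of their mRNAs are short, abundant and begin with a C and a run of pyrimidines, the 5′ terminal oligopyrimidine (TOP) start, through which the kinase mTOR and the protein LARP1 control their translation and stability. Ribosomal proteins that are left unassembled, above all RPL5 and RPL11 bound to 5S ribosomal RNA, bind the ubiquitin ligase MDM2 and signal that assembly has failed.

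The TOP start is shown here because it is the sequence feature that most of these genes share. RefSeq promoter entries (GRCh38.p14) matched 66 of the 83 members, and their annotated starts were read on the gene's own strand for a C followed by at least 4 bases that are each C or T. Of the 61 canonical genes with an entry, 45 (73.8%) had such a start, as did 1 of 5 paralogs. Over all promoters in the table, 5.14% of the genes had it. The windows run from 10 bases before the start to 20 bases from it on, with a TOP run in capitals, and they pair canonical genes with their paralogs and add the members that stood out below.
RPL12 (chr9:127451387-127451416, minus strand): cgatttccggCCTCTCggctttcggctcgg
RPS16 (chr19:39435930-39435959, minus strand): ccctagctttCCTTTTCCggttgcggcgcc
RPS24 (chr10:78033853-78033882, plus strand): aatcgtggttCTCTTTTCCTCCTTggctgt
RPL26 (chr17:8383174-8383203, minus strand): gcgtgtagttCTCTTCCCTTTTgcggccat
RPL26L1 (chr5:172958719-172958748, plus strand): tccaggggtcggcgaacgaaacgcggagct
RPS27 (chr1:153990752-153990781, plus strand): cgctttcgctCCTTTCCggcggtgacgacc
RPS27L (chr15:63157458-63157487, minus strand): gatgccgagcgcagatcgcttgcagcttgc
RPL22 (chr1:6199576-6199605, minus strand): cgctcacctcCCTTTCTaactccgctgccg
RPL22L1 (chr3:170870176-170870205, minus strand): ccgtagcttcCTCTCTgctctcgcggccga
RPL36A (chrX:101391001-101391030, plus strand): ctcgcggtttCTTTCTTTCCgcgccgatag
RPL36AL (chr14:49620607-49620636, minus strand): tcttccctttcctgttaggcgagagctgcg
The runs of the members were 5 to 19 bases long, with a median of 8. RPL26L1, RPS27L and RPL36AL had no such run at the starts given, while RPL22L1 carried one as RPL22 did. The window of RPL36AL shows a run of C and T that begins before the annotated start. With a run allowed to begin up to 5 bases to either side, 52 of the 61 canonical genes and 2 of 5 paralogs had one. Over all promoters 25.2% of the genes then did. A match of letters is a description of the annotated start and not a measured start site.

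The 6 libraries held 20238653 to 46505372 counts, and control replicate 1 was the deepest. Replicate 1 stood apart from the others in both groups. The chi-square per degree of freedom between libraries was 7.13 for lactate replicates 2 and 3 and 10.4 for control replicates 2 and 3, but 50 to 181 for the other pairs. Of 14 fibroblast markers all were in the table, at summed levels of 6217 to 6674 CPM with lactate and 6210 to 6948 CPM in control (CPM, counts scaled to library size by TMM). The epithelial marker EPCAM, the leukocyte marker PTPRC and the endothelial marker PECAM1 averaged under 1 CPM, while the keratin KRT18 averaged 900 CPM. Summed leukocyte markers, 4 of 6 in the table, ran from 78.8 to 100.5 CPM with lactate and from 56.3 to 60.6 CPM in control, and their part in the results was not tested.

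Ribosomal protein mRNA took a larger share of the counts in 1 of the 3 lactate libraries. The 82 ribosomal protein rows held 8.14%, 5.90% and 5.99% of all counts in lactate replicates 1, 2 and 3, against 5.98%, 5.75% and 5.24% in control replicates 1, 2 and 3. Lactate replicate 1 lay above all others, and the other 2 lactate libraries fell beside control replicate 1. The mean share was 6.68% ± 1.26 with lactate and 5.66% ± 0.380 in control (SD, n = 3 each), a difference of 1.02 percentage points. An exact permutation test over the libraries gave p = 0.20 (two-sided, where 3 against 3 libraries cannot go below 0.10). Without lactate replicate 1 the difference was 0.292 percentage points (exact p = 0.40). Counting error was far smaller than these differences, since the 95% Wilson interval of each share reached at most 0.0119 percentage points to either side. In bulk samples, fewer cells of a type and less RNA per cell cannot be told apart.

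**Figure D1:**
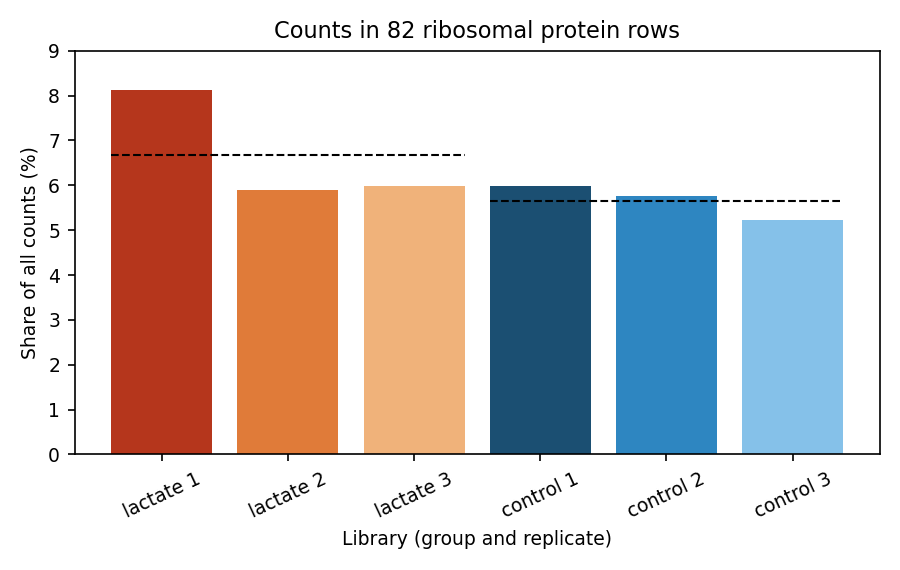
Share of all counts, in percent, that fell in the 82 ribosomal protein rows in each library, with dashed lines at the group means. Lactate replicate 1 holds 8.14%, and the other 5 libraries lie between 5.24% and 5.99%.

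Gene by gene, no ribosomal protein mRNA rose or fell with lactate in the test. Of the 83 rows, 81 had enough counts to be tested, and RPL3L and RPL34-AS1 did not. In the edgeR quasi-likelihood test with Benjamini-Hochberg adjustment over 13188 genes, 0 of the 81 were higher and 0 were lower at an adjusted p under 0.05, where 5.29% of all genes tested were higher and 4.14% were lower. Over all genes there were 698 higher and 546 lower calls, with 92 and 80 without control replicate 2 and 1480 and 1612 without control replicate 1. At an unadjusted p under 0.05, 10 of the 81 were higher and 1 was lower, against 13.9% of all genes in each direction. DESeq2 called 1 member higher (RPL12) and 0 lower, against 8.76% and 8.28% of all genes, and limma-voom called 0 and 0, against 4.75% and 3.33%. The fitted changes leaned upward. Their median was 0.28 on the log2 scale, beside -0.02 over all genes tested, and 64 of the 81 were above 0. The large and small subunits had like medians, 0.28 over 45 genes and 0.29 over 30.

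The upward lean was smaller without lactate replicate 1. This library was the highest of the 6 libraries for 68 of the 81 genes, and lactate replicates 2 and 3 were the highest for 0. Control replicate 3 was the lowest library for 51 genes. The median deviation of the 81 genes from their own mean over the libraries was 0.50, -0.10 and -0.07 on the log2 scale in lactate replicates 1, 2 and 3, and 0.04, -0.11 and -0.28 in control replicates 1, 2 and 3. Without lactate replicate 1, the median fold change was 0.03 on the log2 scale and 44 of the 81 genes were above 0. Without both replicate 1 libraries it was 0.15, and 53 of the 81 were above 0. The spread within the lactate group was wide for these genes, with a median coefficient of variation of 24.3%, against 12.7% in control. For 2319 other genes of at least 100 CPM it was 11.9% with lactate and 14.8% in control.

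**Figure D2:**
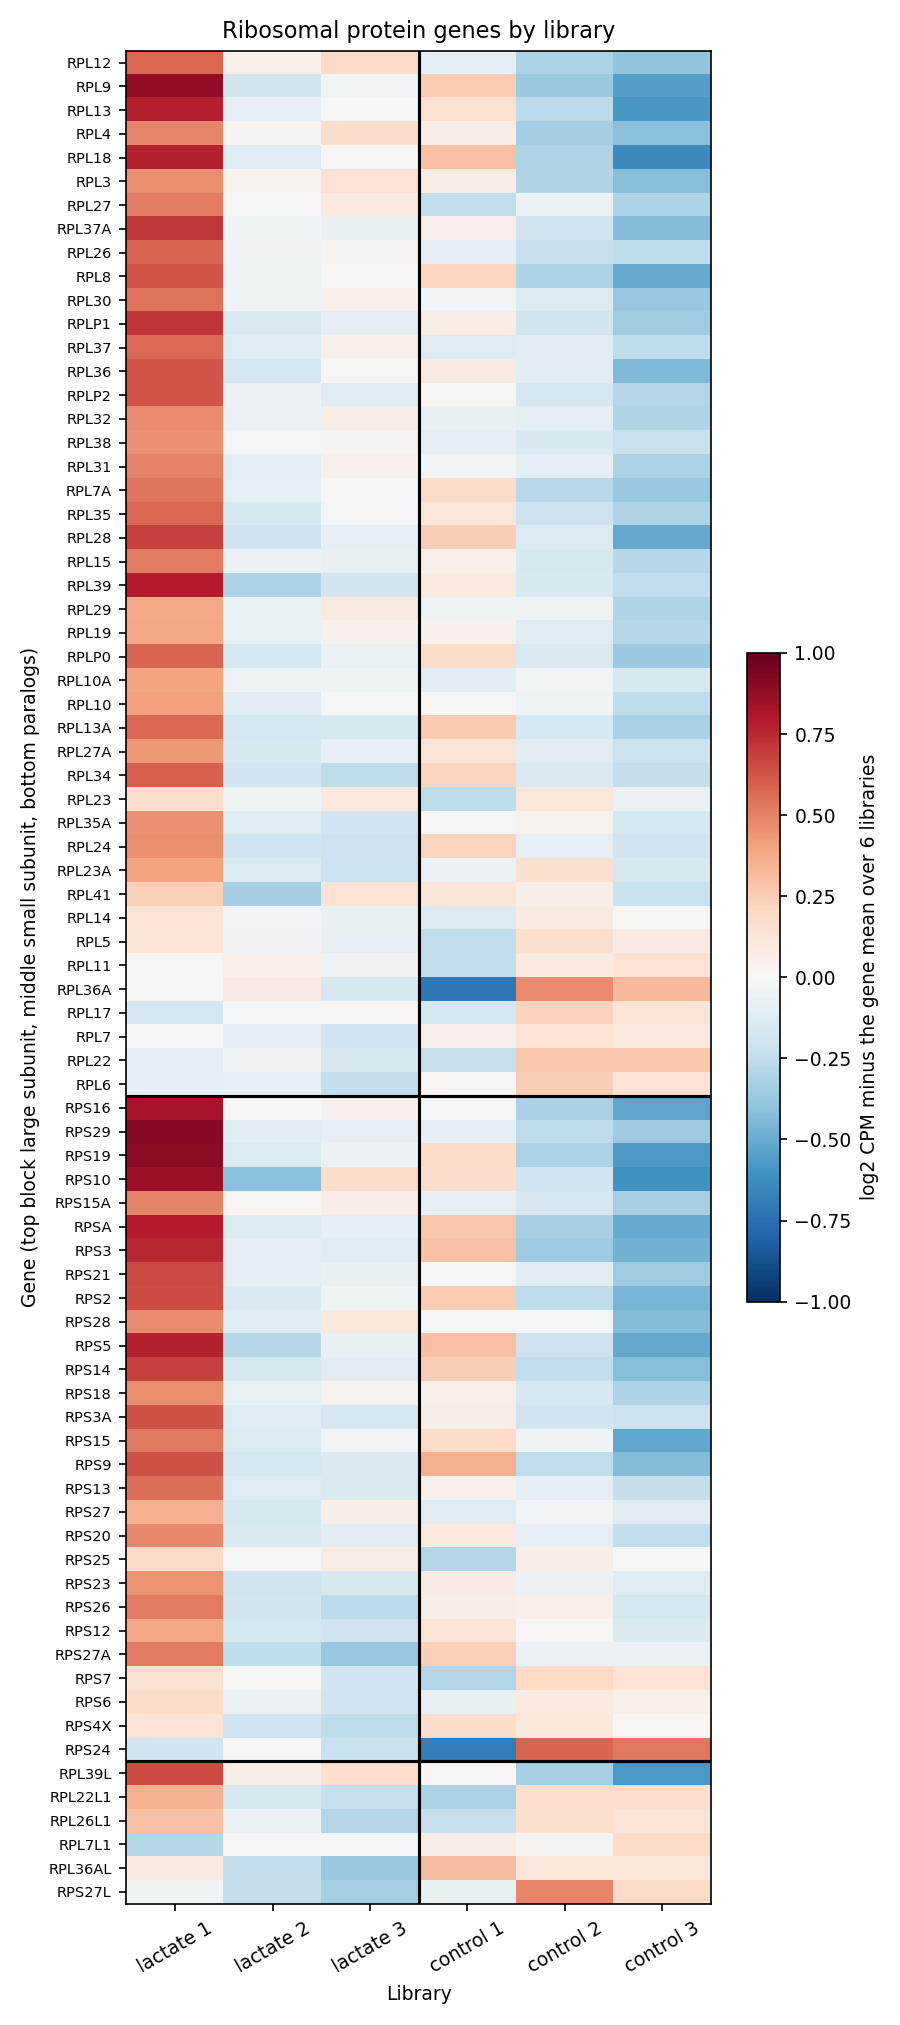
Log2 CPM of each of 78 tested genes minus its mean over the 6 libraries, with genes in rows and libraries in columns (lactate left, control right). Lactate replicate 1 is the highest library for 65 of them, and a few rows such as RPS24, RPL6, RPL22 and RPS27L run the other way.

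Genes of other functions with like transcripts moved in the same libraries. The ribosomal protein mRNAs are short, with a median coding transcript of 705 nt against 2060 nt over the tested genes with a length. A list of 40 short mRNAs for small subunits of the respiratory chain had median deviations of 0.49, -0.15 and -0.11 on the log2 scale in lactate replicates 1, 2 and 3, and 0.16, -0.06 and -0.24 in control replicates 1, 2 and 3. Of these 40 genes 0 rose and 0 fell by the edgeR test at an adjusted p under 0.05. Over all genes tested, 5.29% were higher and 4.14% lower. At an unadjusted p under 0.05, 2 of the 40 were higher and 0 lower, against 13.9% of all genes in each direction. DESeq2 and limma-voom each called 0 of the 40. DESeq2 called 8.76% of all genes higher and 8.28% lower, and limma-voom 4.75% and 3.33%. Across other genes the deviation of a library also moved with GC content. In lactate replicate 1 it was -0.43 for 2243 genes under 42% GC and 0.36 for 2837 genes of at least 58% GC, and in control replicate 3 it was 0.46 and -0.35. The ribosomal protein genes had a median GC content of 50.5%, against 50.1% over the tested genes with a length. From 50% to below 54% GC, lactate replicate 1 deviated by 0.48 for 21 ribosomal protein genes and by 0.04 for 1501 other genes. Within the shortest class, under 750 nt, lactate replicate 1 deviated by 0.54 for 48 ribosomal protein genes and by 0.08 for 1147 other genes. With trends on the GC content and length of the median coding transcript removed, an alternative chosen after the data were seen, the median change of the ribosomal protein genes was 0.19 and 1 gene (RPL12) passed the threshold, where 9.13% of 11708 genes were higher. With the longest annotated transcript in its place, 8 genes were higher (among them RPL5, RPL12, RPL26, RPL27, RPL39L and RPS27), where 10.9% of 12163 genes were. What in the libraries these trends come from was not tested.

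**Figure D3:**
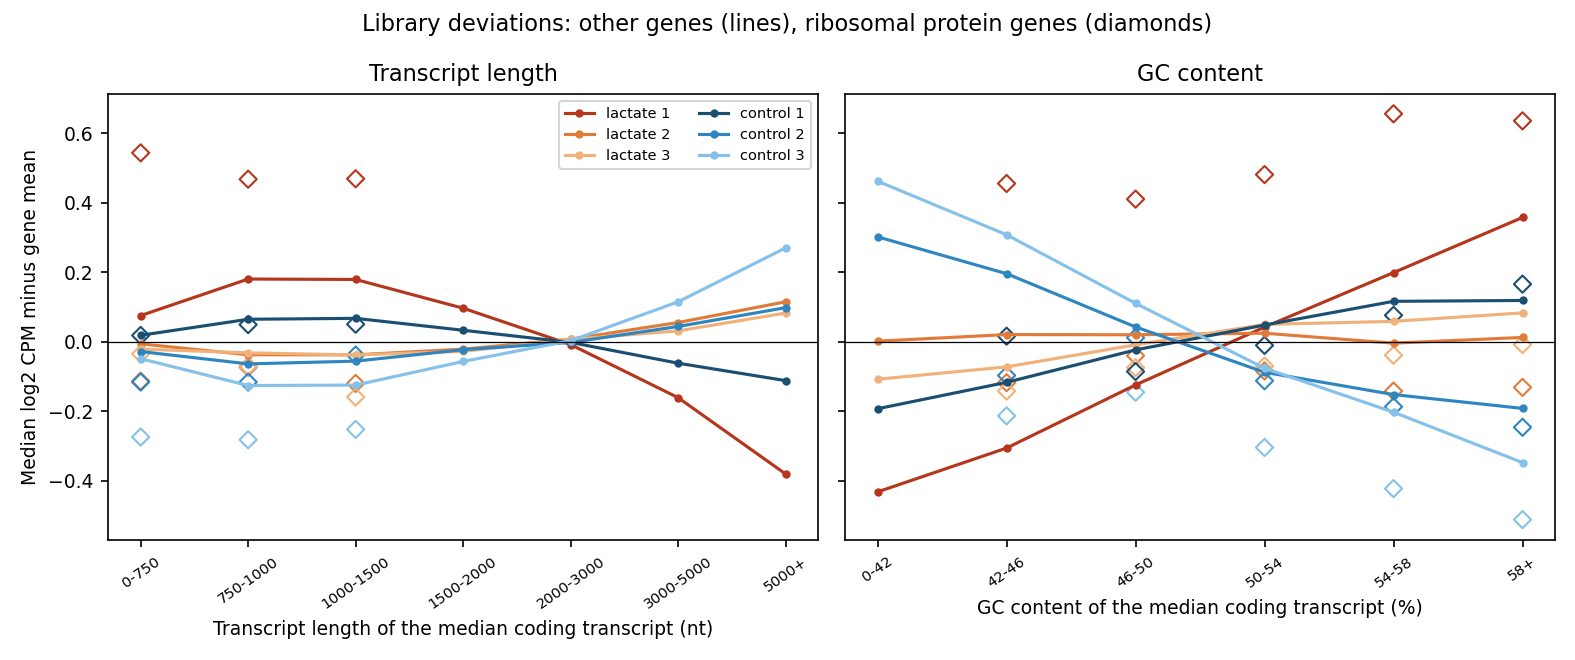
Median log2 CPM of each library minus the gene means, by length and by GC content of the median coding transcript, for other genes (lines) and for ribosomal protein genes (open diamonds, classes of at least 10 genes). The lines of lactate replicate 1 and control replicate 3 cross, and the ribosomal protein genes of lactate replicate 1 lie above its line in every class drawn.

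RPL12, which sits with RPLP0 at the base of the stalk that recruits translation factors, came nearest to the threshold. It had 1606, 1115 and 1233 CPM with lactate and 1006, 864.9 and 818.2 CPM in control. The groups did not overlap. The log2 fold change was 0.56 (SE 0.170, edgeR adjusted p = 0.0712), and without lactate replicate 1 it was 0.39 (edgeR adjusted p = 0.148). It passed the threshold in 6 of 18 alternatives, over which its adjusted p ran from 2.22e-05 to 0.257. The gene spans bases 127447674 to 127451405 of chromosome 9 (GRCh38, minus strand). The other stalk proteins, RPLP0, RPLP1 and RPLP2, were likewise above 0 in the fit, with log2 fold changes of 0.24, 0.36 and 0.33 (edgeR adjusted p = 0.505, 0.346 and 0.329), and overlapped between the groups.

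The largest fitted changes belonged to genes for which lactate replicate 1 was far above its group. RPS16, a small subunit protein that reaches toward the tRNA in the peptidyl site, had 1444, 817.2 and 841.4 CPM with lactate and 803.5, 651.6 and 564.5 CPM in control. Its log2 fold change was 0.62 (SE 0.238, edgeR adjusted p = 0.131). RPS19, the gene most often mutated in Diamond-Blackfan anemia, had 1789, 870.1 and 918.3 CPM with lactate and 1085, 769.9 and 643.1 CPM in control, and its log2 fold change of 0.52 (edgeR adjusted p = 0.282) fell to 0.10 without lactate replicate 1. RPS29, of the small subunit, had 318.0, 156.6 and 159.8 CPM with lactate and 157.9, 141.7 and 131.4 CPM in control, with log2 fold changes of 0.56 and, without that library, 0.14. For RPS19 and RPS29 the groups overlapped, while for RPS16 they did not.

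In all, 11 of the 81 genes were higher in every lactate library than in every control library, where 17.3% of all genes tested were. Among them were RPL12, RPL26, RPL27, RPL32, RPL38, RPL39L, RPS15A and RPS16. In the other direction, 4 genes were lower in every lactate library, RPL6, RPL7, RPL7L1 and RPL36AL, where 15.3% of all genes were. As shares of the 81 genes, 13.6% and 4.94%, both lay below the background.

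In the most abundant members lactate replicate 1 was again the highest library. The 6 with the highest mean level in CPM were RPS2, RPL4, RPLP0, RPS3, RPL7A and RPL8. RPS2, which lines the entry of the mRNA channel, had 4014, 2300 and 2479 CPM with lactate and 3036, 2132 and 1844 CPM in control. RPS3, its neighbor at the channel entry, had 3538, 1972 and 1933 CPM with lactate and 2568, 1628 and 1516 CPM in control. In both, lactate replicate 1 and control replicate 1 were the high libraries of their groups. RPL4, a large subunit protein of the tunnel wall, had 3417, 2486 and 2749 CPM with lactate and 2562, 1921 and 1822 CPM in control, and its log2 fold change was 0.46 (SE 0.182, edgeR adjusted p = 0.141). RPL7A, RPL8 and RPLP0 had log2 fold changes of 0.31, 0.40 and 0.24, and the adjusted p of each was above 0.05 in the edgeR test. Without lactate replicate 1 the log2 fold change was 0.03 for RPS2, 0.04 for RPS3, 0.32 for RPL4, 0.09 for RPL7A, 0.15 for RPL8 and -0.03 for RPLP0.

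**Figure D4:**
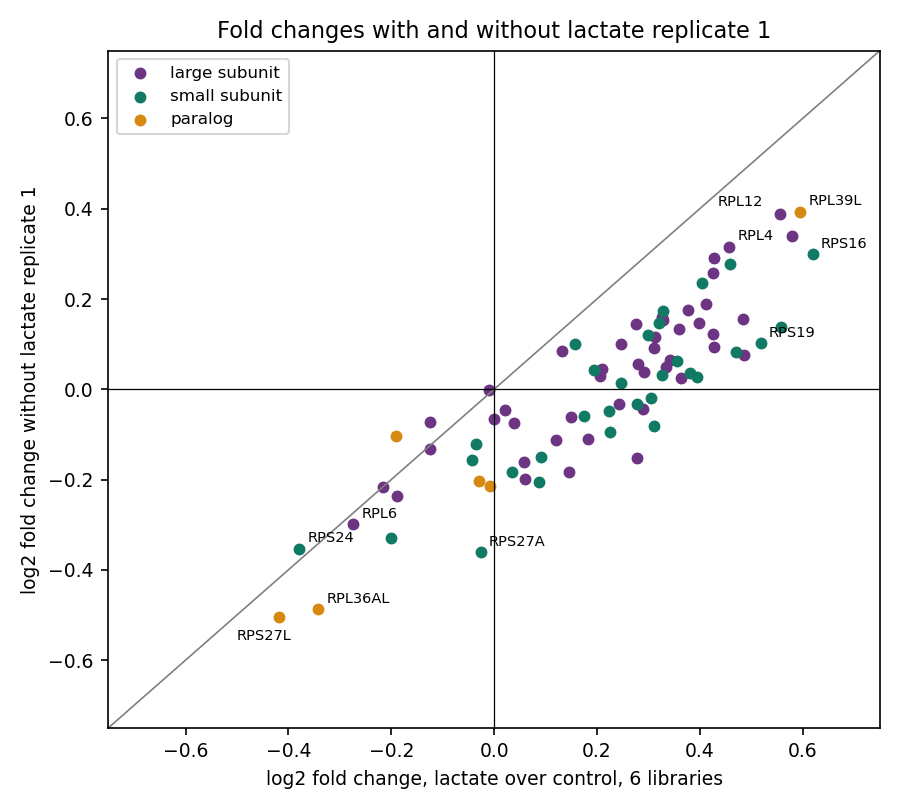
Fitted log2 fold change of the 81 genes, lactate over control, over all 6 libraries (x axis) and without lactate replicate 1 (y axis), with the line of equal values in grey. Most points lie below the line and near 0 on the y axis, where the median is 0.03.

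Per kilobase of the median coding transcript, levels over the 6 libraries ran from 6.15 CPM for RPL36A to 3385 CPM for RPLP1, with a median of 919 CPM over the tested members. RPS2 (3000 CPM per kb), RPLP0 (2629 CPM per kb) and RPL35 (2488 CPM per kb) came next to RPLP1. The 3 lowest canonical genes were RPL36A (6.15 CPM per kb), RPL17 (22.4 CPM per kb) and RPS10 (46.7 CPM per kb). All 3 overlap annotated readthrough genes, and ribosomal protein genes have many processed pseudogenes. How reads shared with such copies were counted is not given, so these levels are uncertain. The lowest count of any tested member in a library was 78.

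Several members of the 5S particle and the MDM2-binding set did not share the common pattern. RPL5 had 1413, 1260 and 1222 CPM with lactate and 1087, 1443 and 1366 CPM in control. RPL11 had 753.5, 787.7 and 744.1 CPM with lactate and 642.9, 813.7 and 843.9 CPM in control. For both, control replicate 1 was the lowest library and the groups overlapped. RPS7, a small subunit protein that also binds MDM2, had 750.1, 676.4 and 590.9 CPM with lactate and 550.2, 776.8 and 741.0 CPM in control. The median over the 6 genes of this list was -0.00 on the log2 scale (RPL5, RPL11, RPL23, RPL26, RPS7 and RPS27L). RPL26, which sits near the tunnel exit, was above it, with 1047, 683.5 and 712.4 CPM with lactate and 653.3, 596.5 and 585.2 CPM in control (log2 fold change 0.41, edgeR adjusted p = 0.176).

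RPS24 varied more between libraries than between groups. It is a small subunit protein whose gene is mutated in some patients with Diamond-Blackfan anemia, and it had 838.6, 954.9 and 817.5 CPM with lactate and 590.6, 1427 and 1379 CPM in control. Control replicates 2 and 3 were high and control replicate 1 was the lowest of all. The log2 fold change was -0.38 (SE 0.289, edgeR adjusted p = 0.415). Without both replicate 1 libraries it was -0.66 (edgeR adjusted p = 7.01e-08), in a fit where 24.8% of all genes tested were lower. With trends on GC content and length of the longest transcript removed it was -0.05 (edgeR adjusted p = 0.889). With those of the median coding transcript removed it was -0.04 (edgeR adjusted p = 0.910). RPL6, of the large subunit, had 510.6, 511.3 and 460.0 CPM with lactate and 548.7, 642.1 and 600.4 CPM in control, without overlap (log2 fold change -0.27, edgeR adjusted p = 0.209). RPL7, also of the large subunit, had 452.2, 426.7 and 397.8 CPM with lactate and 467.7, 502.0 and 485.4 CPM in control, also without overlap (log2 fold change -0.19, edgeR adjusted p = 0.354). RPS4X, of the small subunit, had 1029, 820.2 and 784.2 CPM with lactate and 1063, 1009 and 951.8 CPM in control, and the groups overlapped. RPS27A, which is made as a fusion with ubiquitin, had 892.5, 521.6 and 479.1 CPM with lactate and 733.0, 598.0 and 596.3 CPM in control. Lactate replicates 2 and 3 were its 2 lowest libraries. In the main fit RPS4X was at -0.20 and RPS27A at -0.03. With the same trends removed, log2 fold changes were -0.02 and -0.28 for RPL6, 0.17 and 0.09 for RPL7, and -0.01 and -0.10 for RPS4X. They were 0.18 and 0.09 for RPS27A, each time with the longest transcript first.

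Among replicates 2 and 3 alone, more members passed the threshold, and so did more of all genes tested. Without both replicate 1 libraries, 22 of the 81 genes were higher and 11 were lower by the edgeR test, where 22.6% of 13288 genes were higher and 24.8% were lower. The 11 lower ones were RPS24, RPL6, RPL7, RPL22, RPS4X, RPS7, RPS27A and the paralogs RPL22L1, RPL26L1, RPL36AL and RPS27L, and the higher ones held RPL3, RPL4, RPL12, RPS16 and RPL39L. With 2 libraries a group, these calls rest on the small spread within each pair. With control replicate 1 alone left out, 4 genes were higher (RPL3, RPL4, RPL12 and RPL39L) and 2 were lower (RPS24 and RPS27L), where 11.1% and 12% of all genes were.

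The paralogs, which stand beside a canonical gene or in its place, had lower fitted changes than the canonical genes. Over the 6 tested ones the median log2 fold change was -0.11, beside 0.28 over the 75 canonical genes, and this difference was not tested. With trends on GC content and length removed, the medians were -0.04 and 0.24 (longest transcript) and 0.03 and 0.21 (median coding transcript). RPL39L, the paralog of the tunnel protein RPL39 that is best known from the testis, had 67.3, 44.7 and 48.1 CPM with lactate and 43.2, 33.9 and 28.7 CPM in control. It was the only 1 of the 6 with a fitted change above 0 (log2 fold change 0.60, SE 0.214, edgeR adjusted p = 0.111), and its groups did not overlap. RPS27L had 39.2, 34.2 and 32.0 CPM with lactate and 38.2, 56.6 and 46.02 CPM in control (log2 fold change -0.42, SE 0.183, edgeR adjusted p = 0.174). RPL36AL had 52.2, 41.3 and 38.0 CPM with lactate and 60.7, 52.95 and 52.91 CPM in control, without overlap (log2 fold change -0.34, edgeR adjusted p = 0.213). RPL7L1, whose yeast relative Rlp7 acts in ribosome assembly, had 57.5, 70.4 and 69.8 CPM with lactate and 73.9, 71.6 and 80.4 CPM in control. RPL22L1 and RPL26L1 had log2 fold changes of -0.01 and -0.03 and overlapped between the groups.

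Within a library, the ratio of a paralog to its canonical gene does not depend on the scaling. Trends of a library with GC content and length are not removed from it. Ratios are counts of the paralog as a percent of the canonical gene's counts, not corrected for length, and serve to compare libraries. RPS27L stood at 8.89%, 11.1% and 8.97% of RPS27 with lactate and at 12.2%, 16.9% and 14.5% in control, without overlap. The mean was 9.66% ± 1.27 with lactate and 14.5% ± 2.33 in control (SD, n = 3 each), with p = 0.10 in a two-sided exact permutation test, the smallest that 3 against 3 libraries allow, and 0.40 after Benjamini-Hochberg adjustment over the 6 ratios, which ran from 0.40 to 1. In the main fit the log2 fold changes were -0.42 for RPS27L and 0.19 for RPS27. With trends on GC content and length of the longest transcript removed, they were -0.16 and 0.36. With those of the median coding transcript removed, they were -0.20 and 0.35. RPL39L stood at 51.8%, 73.4% and 72.5% of RPL39 with lactate and at 53.5%, 49.96% and 45.3% in control (exact p = 0.20). Here lactate replicates 2 and 3 were high and lactate replicate 1 was among the controls. RPL26L1 stood at 4.05%, 4.83% and 3.97% of RPL26 with lactate and at 4.51%, 6.46% and 6.47% in control (exact p = 0.20). RPL22L1 stood at 55.6%, 37.3% and 38.7% of RPL22 with lactate and at 38.2%, 37.9% and 37.8% in control (exact p = 0.60), so that lactate replicate 1 alone stood apart. RPL7L1 stood at 12.7%, 16.5% and 17.5% of RPL7 with lactate and at 15.8%, 14.3% and 16.6% in control (exact p = 1). The ratio of RPL36AL to RPL36A is not read, because RPL36A had as few as 78 counts in a library.

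**Figure D5:**
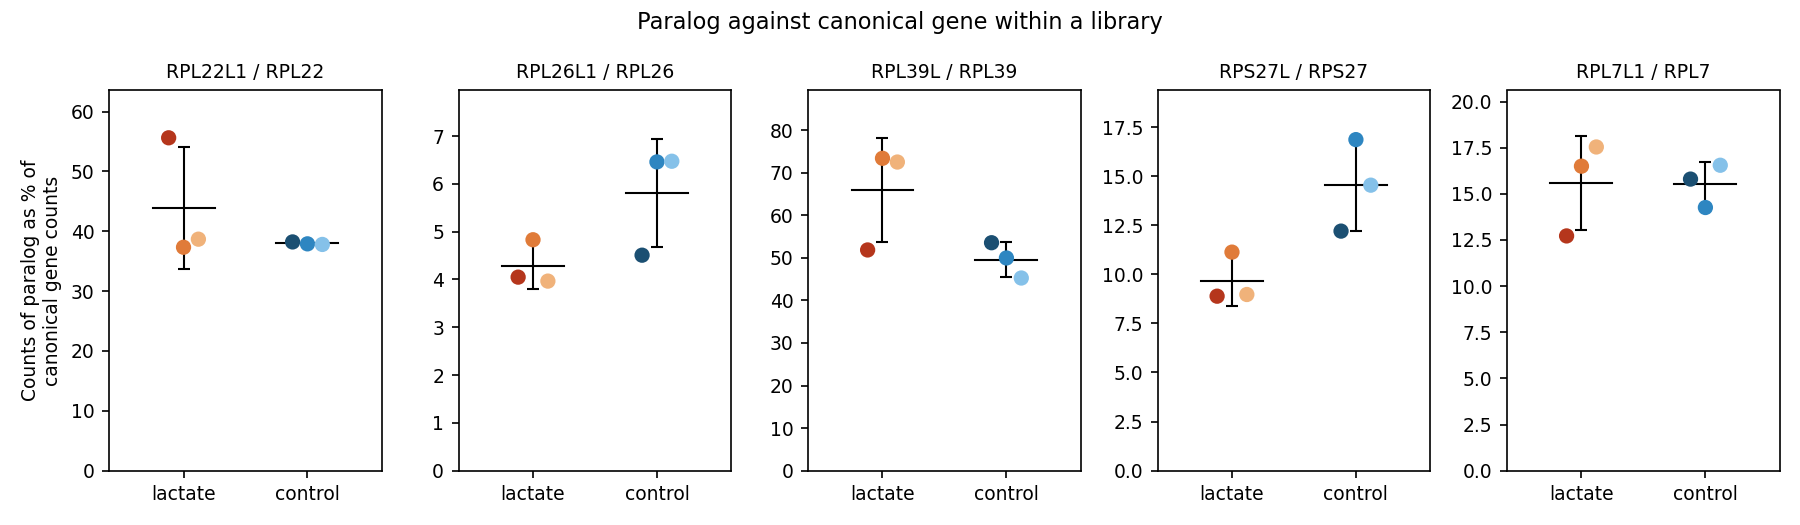
Counts of each paralog as a percent of the counts of its canonical gene, per library, with the mean and SD of each group of 3 and y axes from 0. The lactate points of RPS27L over RPS27 (8.89% to 11.1%) lie below the control points (12.2% to 16.9%), and the other pairs overlap.

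The makeup of the ribosomal protein pool was compared by scaling each library to its summed ribosomal protein counts. This scaling moved the median of all genes tested to -0.24 on the log2 scale and that of the ribosomal protein genes to -0.00. Of the 81 genes, 0 were higher and 0 lower in the edgeR test at an adjusted p under 0.05 (3 higher and 5 lower at an unadjusted p under 0.05), where 0.379% and 0.569% of all genes were. The changes ran from -0.68 to 0.35, and 61 genes lay within 0.25 of 0. Few genes of any kind passed under this scaling, so the lack of calls among the members says little about the makeup of the pool. As a share of the pool, 9 genes were higher in every lactate library and 9 were lower in every lactate library, where 7.95% and 19.7% of all genes tested were. RPL12 took 1.84%, 1.95% and 2.09% of the pool with lactate and 1.58%, 1.56% and 1.64% in control. RPS4X took 1.18%, 1.44% and 1.33% with lactate and 1.67%, 1.82% and 1.91% in control. RPS24 took 0.961%, 1.67% and 1.39% with lactate and 0.926%, 2.57% and 2.76% in control, so the 2 replicate 1 libraries shared its low share.

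Members were also set apart by the letters at the annotated start itself, where a run that begins nearby does not count. The 46 members with a TOP start had a median log2 fold change of 0.28 and the 20 without it 0.23, and without lactate replicate 1 these were 0.01 and 0.03. Of those with a TOP start 39 of 46 were above 0, and of those without it 12 of 20, a difference that was not tested. Those without it included the paralogs RPL7L1, RPL26L1, RPL36AL and RPS27L, each below 0. RPL22L1, the paralog with a TOP start, was also below 0. Among 669 other genes with a TOP start, 30 rose and 16 fell in the edgeR test, where 5.29% of all genes tested were higher and 4.14% lower, and their median was 0.03. A list of 23 elongation factors, translation partners and other genes was chosen as having such a start, and the letters were found in 13 of the 16 with a promoter entry. Against the same background, 0 of the 23 rose and 1 fell. It was NPM1, a nucleolar chaperone of ribosome assembly, with 967.9, 1010 and 871.5 CPM with lactate and 1393, 1565 and 1676 CPM in control. The groups were well apart (log2 fold change -0.70, SE 0.137, edgeR adjusted p = 0.0188). The list's median was 0.05. The call did not hold when either of lactate replicates 2 and 3 or either of control replicates 2 and 3 was left out, and over 18 alternatives the edgeR, DESeq2 or limma-voom adjusted p reached 0.114.

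The other genes around ribosomal proteins were taken from lists chosen by function. Of 42 tested ribosome biogenesis factors and RNA polymerase I genes, 0 rose and 1 fell, where 5.29% of all genes tested were higher and 4.14% lower, with a median log2 fold change of -0.21. It was LTV1, an assembly factor of the small subunit, with 16.1, 21.3 and 19.04 CPM with lactate and 27.1, 30.7 and 33.4 CPM in control (log2 fold change -0.69, edgeR adjusted p = 0.0422). Of 14 importers and chaperones that escort new ribosomal proteins, 0 rose and 1 fell against the same 5.29% and 4.14%, with a median of -0.28. It was BCCIP, whose yeast counterpart Bcp1 is a chaperone of Rpl23, with 51.4, 65.7 and 57.5 CPM with lactate and 71.6, 112.4 and 119.5 CPM in control (log2 fold change -0.80, edgeR adjusted p = 0.0453). Leaving out any 1 library except control replicate 1 ended the calls of LTV1 and BCCIP, whose adjusted p by edgeR, DESeq2 or limma-voom reached 0.180 and 0.190 over the alternatives.

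A list of 20 regulators of ribosomal protein mRNA held the mTOR arm, MYC, the MDM2 arm and others such as ZNF692. Of these 20 genes 4 rose and 0 fell, where 5.29% of all genes tested were higher and 4.14% lower. The median log2 fold change of the list was 0.10. DDIT4, which encodes the mTORC1 inhibitor REDD1, had 269.9, 207.2 and 197.2 CPM with lactate and 78.5, 57.5 and 56.3 CPM in control (log2 fold change 1.81, SE 0.192, edgeR adjusted p = 0.00196). SESN2, a leucine sensor that also inhibits mTORC1, had 89.0, 80.8 and 79.5 CPM with lactate and 54.9, 44.2 and 38.9 CPM in control (log2 fold change 0.85, edgeR adjusted p = 0.0186). MYC, a transcription factor that drives ribosome synthesis, had 274.5, 239.9 and 264.1 CPM with lactate and 134.4, 139.1 and 125.9 CPM in control (log2 fold change 0.96, SE 0.131, edgeR adjusted p = 0.00507). ZNF692 had 37.7, 30.8 and 33.6 CPM with lactate and 24.3, 17.1 and 17.1 CPM in control (log2 fold change 0.80, edgeR adjusted p = 0.0358). None of the 4 overlapped between the groups. DDIT4 passed the threshold in all 18 alternatives, MYC in 17, SESN2 in 14 and ZNF692 in 12. The adjusted p by edgeR, DESeq2 or limma-voom reached 0.0223, 0.0978, 0.136 and 0.192 in the same order.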

How the data were processed

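Samples were grouped by their treatment label. Per the labels, poly(A) RNA was selected and directional libraries were sequenced single-end. The study's library section describes a 3′ end kit, and the labels were followed here. The file deposited by the authors holds unnormalized read counts, 1 row per gene symbol. STAR, DESeq2 and the build hg38 appear in the submitters' processing notes. Versions, the strand setting and the treatment of reads shared by gene copies are not given in the sources used here. The table had 0 columns of other samples.

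The main test was the two-sided quasi-likelihood F test of edgeR 4.0.16 (R 4.3.3), after TMM scaling and filterByExpr by group. Adjustment was by Benjamini-Hochberg over the 13188 genes that passed the filter, and 0.05 was the threshold. Levels are CPM on TMM-scaled library sizes, median deviations of libraries are on the log2(CPM + 0.1) scale, and fold changes are lactate over control. Shares and ratios were compared by exact permutation in scipy 1.17.1. DESeq2 1.42.0, limma 3.58.1, other scalings, filters, trend corrections and left-out libraries were the alternatives. The fits were tested on simulated data, which held no trends with GC content or length and no library set apart from its group. All 83 members matched 1 gene of GENCODE release 29 on GRCh38. Trends used splines with 5 degrees of freedom.

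Totals ran from 20238653 to 46505372 counts, and intervals of shares cover counting error only, at 95% by the Wilson method. Nothing but the label of biological replicates says how the cultures were separated, so p-values measure the spread between these libraries. The members and lists were chosen with earlier results of these data known. Named genes were, by rule, members past the threshold, the 6 with the highest CPM, paralogs, rows that are no ribosomal protein gene, and the leading genes of each list. RPL6, RPL7, RPL12, RPL22, RPL26, RPS7, RPS16, RPS19, RPS24, RPS27, RPS27A, RPS29 and ZNF692 were added after their values were seen, as were the low canonical genes. A few members that count in the totals are not reported here by name.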

Additional observations from a re-analysis of the deposited data

Results flagged for a closer look

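The summed level of the rows with ribosomal protein pseudogene symbols, which the report's comparisons leave out, was higher with lactate than in control. Over 20 such rows it was 48.7, 41.0 and 39.9 CPM with lactate and 33.3, 36.1 and 36.4 CPM in control. The mean was 43.2 ± 4.79 CPM with lactate and 35.3 ± 1.70 CPM in control (SD, n = 3 each), without overlap and with p = 0.10 in a two-sided exact permutation test, the smallest that 3 against 3 libraries can give. Of the 20 rows 12 had enough counts to be tested among all genes. At an edgeR adjusted p under 0.05, 2 of the 12 were higher and 0 were lower, where 5.29% of all genes tested were higher and 4.14% lower, and both were chosen for mention after their values were seen. RPLP0P2 had 3.37, 3.27 and 3.11 CPM with lactate and 1.26, 0.857 and 1.14 CPM in control (log2 fold change 1.56, edgeR adjusted p = 0.0104). RPL32P3 had 8.52, 8.36 and 9.09 CPM with lactate and 3.30, 4.90 and 4.49 CPM in control (log2 fold change 1.04, edgeR adjusted p = 0.0219). These 2 rows held most of the difference, since without them the sum was 36.8, 29.4 and 27.7 CPM with lactate and 28.8, 30.4 and 30.8 CPM in control, with overlap. Of the 12 tested rows 8 had a fitted change above 0 and 4 below it. Reads of such rows may be shared with the parent genes, and how they were counted is not given.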

How the results depend on the processing

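No paired analysis was possible because the labels give no replicate numbers, and those used here only name the libraries in sample order. The share of counts in ribosomal protein genes was higher with lactate in all 9 alternatives, by 0.292 to 1.41 percentage points as each library was left out, and p stayed at or above 0.20. The median log2 fold change of the ribosomal protein genes ran from 0.03 to 0.38 as each library was left out, and was -0.00348 with scaling to their summed counts. Between 0 and 4 of these genes were higher and 0 to 2 were lower as each library was left out. DESeq2, total library size and the trend of the median coding transcript each gave 1 higher gene, the trend of the longest transcript gave 8, and the fit without both replicate 1 libraries gave 22 higher and 11 lower, the cause not being tested. Over all genes tested the calls also differed by more than 1.5 times, at 698 higher and 546 lower in the main design, 1324 and 1504 with that trend removed, 50 and 75 with scaling to ribosomal protein counts, and 3002 and 3293 without both replicate 1 libraries. They were 409 and 302 without lactate replicate 1, 288 and 223 without lactate replicate 2, 129 and 79 without lactate replicate 3, 1480 and 1612 without control replicate 1, 92 and 80 without control replicate 2, and 203 and 157 without control replicate 3.

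In the main design the lists held 23 translation partners, 42 biogenesis factors, 14 importers and chaperones, 20 regulators and 40 short respiratory mRNAs. As each library was left out, the listed translation partners had 0 to 1 higher and 0 to 4 lower genes. Biogenesis factors had 0 to 10 lower, importers and chaperones 0 to 4 lower, and regulators 2 to 5 higher and 0 to 1 lower. The highest of these counts came without control replicate 1, where 11.1% of all genes were higher and 12% lower. Without both replicate 1 libraries these lists had 5 higher and 6 lower, 4 and 19, 2 and 8, and 10 and 3 in the same order. Short respiratory mRNAs had 7 and 5. In that fit 22.6% of all genes tested were higher and 24.8% lower. With the trend of the longest transcript removed, partners had 1 and 2, biogenesis 1 and 14, and respiratory mRNAs 5 and 1. Importers had 5 lower and regulators 1 lower, where 10.9% of all genes were higher and 12.4% lower. With the trend of the median transcript removed, the partners had 0 lower, biogenesis and importers 4 lower each, regulators 1 lower and respiratory mRNAs 2 higher. There 9.13% of all genes were higher and 10% lower. DESeq2 gave 2 lower partners, 6 lower biogenesis factors and 1 lower regulator, where 8.28% of all genes were lower. Scaling to ribosomal protein counts left 0 lower in the first 3 lists and 1 higher regulator. Under it 0.379% of all genes were higher and 0.569% lower. Biogenesis factors and importers had 0 lower with total library size, upper quartile scaling or genes of at least 10 CPM. Over all genes, 447 of 13188, 491 of 13188 and 290 of 8884 were lower in the same order. Importers also had 0 lower with limma-voom, where 3.33% of all genes were lower.

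Of 719 refits of the 40 named genes, 596 kept direction and side of the threshold, 34 newly passed it, 37 no longer passed and 52 changed sign. Log2 fold changes that changed sign under the trend of the longest transcript were RPL5 0.41, RPL7 0.17, RPL11 0.0674, RPL22L1 0.27, RPL35 -0.0881, RPL36A 0.20, RPS7 0.21 and RPS27A 0.18. Under the trend of the median transcript they were RPL5 0.13, RPL7 0.0889, RPL11 0.0848, RPL22L1 0.45, RPL26L1 0.0612, RPL36A 0.27, RPS7 0.0434 and RPS27A 0.0935. With scaling to ribosomal protein counts they were NDUFB9 -0.0240, RPL19 -0.00348, RPLP0 -0.0262 and RPS27 -0.0713. RPL5, at -0.00 in the main design, had 0.00116 with DESeq2, 0.00776 with limma-voom, 0.00115 with RLE, 0.000128 with upper quartile scaling and 0.00183 with TMM without the ribosomal protein genes, and limma-voom gave RPL11 0.00118 and RPL36A 0.0161. Leaving out single libraries moved the value across 0 for NDUFB9 (-0.0410 to 0.41), RPL5 (-0.11 to 0.0787), RPL11 (-0.12 to 0.0627), RPL22L1 (-0.215 to 0.0995), RPL26L1 (-0.203 to 0.0953), RPL36A (-0.43 to 0.0889), RPLP0 (-0.0320 to 0.40), RPS7 (-0.18 to 0.0554) and RPS27A (-0.36 to 0.14).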
